A study of Mus musculus with 6 samples.

Results

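The genes described here are the non-collagen proteins of the extracellular matrix, the proteases and inhibitors that act on them, and the integrin receptors that bind them. They were taken as every probe whose single gene symbol begins with a laminin, Adamts, Timp, Mmp, fibulin, fibrillin, Lox, Sparc, thrombospondin, Sfrp or integrin stem, together with Dcn, Lum, Bgn, Fn1, Postn, Nid1 and Nid2. This rule uses names alone and no measured value, but the members were chosen with earlier results of these data known. It found 91 probes for 89 genes among the 33012 probes of the array, which name 13840 genes by a single symbol, and Adamts8 and Loxl2 had 2 probes each. Because the choice follows spelling, it also took in Itgb1bp1, Itgb1bp2, Itgb3bp, Itgbl1 and Loxhd1, which are neither integrin subunits nor lysyl oxidases.

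RNA came from whole testes of adult male C57BL/6J mice aged 10 to 12 weeks, with 1 digoxigenin-labelled array per sample, 3 groups and 2 samples in each. Wild-type mice and Abcg8 knockout mice ate rodent chow, and a further set of Abcg8 knockout mice ate chow that held 0.005% ezetimibe, a drug that blocks sterol uptake from the gut. Abcg8 encodes a half-transporter that, with Abcg5, pumps sterols out of liver and intestinal cells. How the knockout was made and how long ezetimibe was given are not stated in the labels, and each sample has its own identifier, so that p-values measure the spread between these samples.

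The matrix of the testis lies in the wall around each seminiferous tubule and in the interstitium between tubules. Sertoli cells and peritubular myoid cells lay down a basement membrane of laminins, nidogens and type IV collagen, outside which lie fibrillar collagens with their small proteoglycans. Metalloproteases cut these proteins, Timp proteins inhibit the proteases, and integrins tie cells to the matrix.

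Facts of the whole array set bear on every value below. The median raw signal was 258 on the array of wild-type replicate 2 and 515 to 678 on the other 5. That array also stood apart on the first principal component, at 53.6 against -17.3 to 0.73, a component with 39.3% of the variance. The probe for Abcg8, the gene named as deleted, went against the labels: it read 10.34 and 10.29 (log2 signal) in testes labelled wild-type, 14.04 and 14.35 in those labelled knockout, and 14.42 and 14.40 in those given ezetimibe (limma adjusted p = 0.0177 for knockout against wild-type). Where this probe lies relative to the deleted part is not known here. Groups are therefore called wild-type-labelled, knockout-labelled and ezetimibe-fed (knockout-labelled too), and each direction rests on the labels. In whole-testis RNA, fewer cells of a type and less RNA per cell cannot be told apart.

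A probe was counted as detected on an array when its deposited signal-to-noise was at least 3, and it was tested when it was detected on both arrays of at least 1 group. Of the 91 member probes, 36 were tested, 27 were detected on all 6 arrays and 41 on none. Between 31 and 40 member probes were detected on an array. The share tested differed by role. All 7 probes of the fibronectin and matricellular group were tested (6 on all arrays), as were 6 of 9 for laminins and nidogens and 2 of 3 for small leucine-rich proteoglycans. In the other roles 6 of 19 integrin subunit probes, 5 of 18 Mmp probes, 3 of 13 Adamts and Adamtsl probes, 2 of 4 Sfrp probes, 1 of 3 Timp probes and 1 of 10 fibrillin, fibulin and lysyl oxidase probes were tested, with 3 of the 5 probes named only by spelling.

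Some members were tested only through the group in which they were bright, and for these a difference follows in part from the filter. Mmp9, Mmp23 and Thbs4 were tested through the knockout-labelled arrays alone, Itgb7 and Sfrp2 through the wild-type-labelled arrays alone, and Itgam through the ezetimibe-fed arrays alone. Itgb5 was tested through the other groups but not the wild-type-labelled one, and Itga7 and Mmp2 not through the ezetimibe-fed one. Counts are therefore given first for the 27 members detected on every array.

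**Figure D1:**
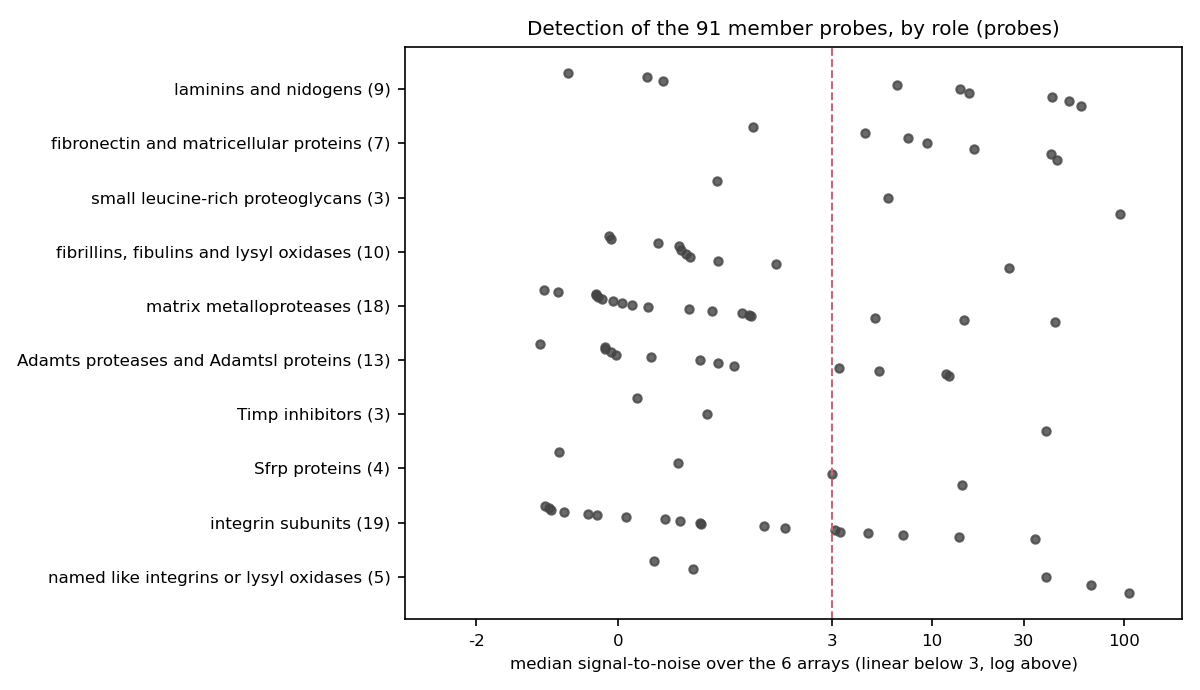
Detection of the 91 member probes by role: each point is 1 probe at its median signal-to-noise over the 6 arrays (no unit; axis linear below 3 and logarithmic above), the dashed line marks 3, and numbers in parentheses count the probes of a role. In the fibronectin and matricellular row 6 of 7 points lie right of the line, and in the fibrillin, fibulin and lysyl oxidase row 1 of 10.

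No member passed the test in any of the 3 comparisons, by limma with Benjamini-Hochberg adjustment over all 16015 tested probes. For knockout-labelled against wild-type-labelled testes 0 of 36 members passed in either direction, where 0.00624% of all tested probes passed as higher and 0.00624% as lower. Between ezetimibe-fed and knockout-labelled testes 0 of 36 passed, where 0% of all probes passed in either direction. Between ezetimibe-fed and wild-type-labelled testes 0 of 36 passed, against 0.00624% of all probes in each direction. The lowest adjusted p of a member was 0.434, 0.444 and 0.143 in these 3 comparisons. With 2 arrays a group, an exact permutation test cannot give a p under 0.333, and the median standard error of a log2 difference was 0.14.

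The members are therefore described by where their arrays lay. Of the 27 members detected on all arrays, 18 (66.7%) had a knockout-labelled mean above the wild-type-labelled mean, where 48.6% of all probes detected on all arrays did. Both knockout-labelled arrays lay above both wild-type-labelled arrays for 10 of the 27 (37%, against 21.8% of all such probes), and below them for 5 (18.5%, against 22.4%). At an unadjusted p under 0.05, 0 of the 27 were higher (against 3.42% of all such probes) and 0 were lower (against 3.75%), while of the 36 tested members 2 were higher (against 4.75% of all tested probes) and 1 was lower (against 4.24%). The median difference of the 27 was 0.09 on the log2 scale, where that of all such probes was -0.01. The 27 include Itgb1bp1, Itgb3bp and Itgbl1, which were taken in by spelling. All 3 of these lay above 0, and 2 of them were apart upward. Over the 36 tested members, 24 lay above 0 (50.9% of all tested probes did) and 12 below, and the groups were apart upward for 14 (38.9%, against 22.6% of all tested probes) and downward for 7 (19.4%, against 21.1%). With arrays scaled to their medians in place of quantile normalisation, 29 of the 36 lay above 0 and 7 below, and the median of all tested probes itself moved to 0.11.

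Most members lay lower in ezetimibe-fed than in knockout-labelled testes. Of the 27 members detected on all arrays, 19 (70.4%) were below 0, where 48.8% of all such probes were. Both ezetimibe-fed arrays lay below both knockout-labelled arrays for 8 of the 27 (29.6%, against 19% of all such probes), and above them for 4 (14.8%, against 19.4%). At an unadjusted p under 0.05, 4 of the 27 were lower (14.8%, against 2.16%) and 0 were higher (against 1.77%). The 4 were Lamb1, Lamb2, Nid1 and Adamts5, the last named after its values were seen. The median of the 27 was -0.15, where that of all such probes was 0.00. Itgb1bp1, Itgb3bp and Itgbl1, taken in by spelling, were all among the 19 below 0. Over the 36 tested members 11 were above 0 and 25 below, and 8 had an unadjusted p under 0.05 on the lower side (22.2%, against 3.2% of all tested probes) and 0 on the higher side (against 2.55%). The groups were apart downward for 14 of the 36 (38.9%, against 19.7%) and upward for 4 (11.1%, against 19.1%). The other 4 of these 8 were Sfrp2, Mmp23, Thbs4 and Mmp2, and each was undetected on at least 1 ezetimibe-fed array.

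Against wild-type-labelled testes, the ezetimibe-fed mean was lower for 15 of the 27 members (55.6%, against 50.1% of all such probes) and for 20 of the 36 tested (55.6%, against 48.9% of all tested probes). The median of the 27 was -0.07, where that of all such probes was -0.00. The arrays of these groups were apart downward for 11 of the 27 members (40.7%, against 18.5% of all such probes) and upward for 5 (18.5%, against 17.7%). At an unadjusted p under 0.05, 2 were higher (against 2.4%) and 1 was lower (against 2.69%). Of the 36 tested members 13 were apart downward (36.1%, against 18.2% of all tested probes) and 6 upward (16.7%, against 18.6%), and 2 were higher (against 3.73%) and 2 lower (against 3.51%) at an unadjusted p under 0.05. All 3 comparisons share arrays, so their values are given side by side and are not independent of each other.

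**Figure D2:**
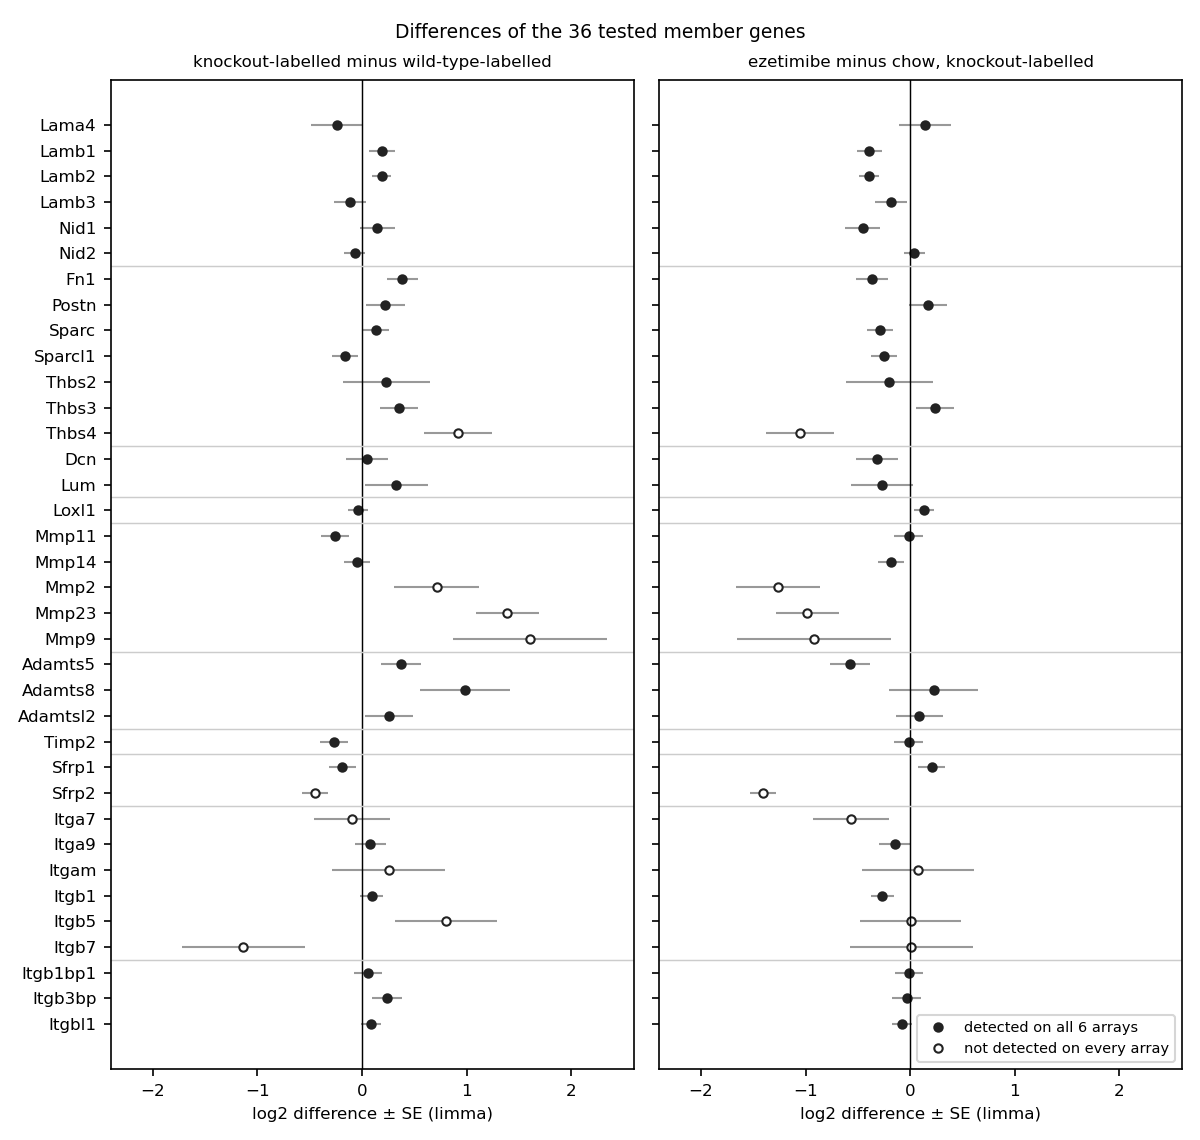
Log2 differences of the 36 tested member genes, 1 panel for knockout-labelled minus wild-type-labelled and 1 for ezetimibe-fed minus chow-fed knockout-labelled testes; points are limma differences, bars their standard error (2 arrays a group), and open points mark genes not detected on every array. In the first panel 24 of the 36 points lie above 0, in the second 25 lie below 0, and 0 passed the threshold in either.

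Laminins, trimers that build the sheet of the basement membrane, and nidogens, which link laminin to type IV collagen, lay within 1 log2 unit over the 6 arrays for each tested gene. Lamb2, the beta-2 chain, had a log2 signal of 13.66 and 13.55 in wild-type-labelled, 13.79 and 13.80 in knockout-labelled, and 13.41 and 13.40 in ezetimibe-fed testes. The 3 groups did not overlap, with the knockout-labelled arrays highest and the ezetimibe-fed arrays lowest. The difference was 0.19 ± 0.09 (SE, n = 2 per group; limma adjusted p = 0.571) for knockout-labelled over wild-type-labelled and -0.39 ± 0.09 (adjusted p = 0.660) for ezetimibe-fed against knockout-labelled, a 1.31-fold lower signal. Lamb1, the beta-1 chain, read 11.87 and 11.88 in wild-type-labelled testes, 12.07 and 12.07 in knockout-labelled testes, and 11.54 and 11.82 with ezetimibe. Its groups did not overlap either and kept the same order, and the ezetimibe-fed arrays were -0.39 ± 0.12 from the knockout-labelled ones on the log2 scale (limma adjusted p = 0.786; -0.25 without ezetimibe replicate 1).

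Nid1 read 10.74 and 10.56 in wild-type-labelled, 10.97 and 10.62 in knockout-labelled, and 10.24 and 10.45 in ezetimibe-fed testes. The first 2 groups overlapped, while both ezetimibe-fed arrays were the lowest of the 6, with a difference of -0.45 ± 0.17 (SE) from knockout-labelled testes (limma adjusted p = 0.839; -0.28 without knockout replicate 1). Nid2 was flat: its signal was 14.30, 14.33, 14.30, 14.19, 14.25 and 14.33 in the same order of arrays, a range of 0.15. Its differences were -0.07 (knockout-labelled minus wild-type-labelled) and 0.04 (ezetimibe-fed minus knockout-labelled). Both changed sign under median scaling, which moved the medians of all tested probes to 0.11 and -0.05. Nid2 lay below the first of these medians and above the second under either scaling. Lamb3, the beta-3 chain, read 12.68 and 12.81, then 12.57 and 12.69, then 12.27 and 12.63. Lama4, an alpha chain of blood vessel basement membranes, read 10.22 and 10.22, then 10.02 and 9.94, then 9.76 and 10.49, with its 2 ezetimibe-fed arrays at the opposite ends of the 6. All 6 tested laminin and nidogen genes had a lower mean with ezetimibe than in wild-type-labelled testes, with differences of -0.30 to -0.03 that did not pass the test. Under median scaling the Nid2 difference turned to 0.04, where the median of all tested probes was 0.06.

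The start regions of the 3 basement membrane genes with an unadjusted limma p under 0.05 between ezetimibe-fed and knockout-labelled testes, and of Sfrp2, are shown side by side. These genes were picked after their values were seen. Mmp23 and Thbs4 were also lower at that level and have a listed promoter, which is not shown. Each run covers 250 bases before to 50 bases after the start listed by RefSeq in assembly GRCm38.p6, on the plus strand: Lamb2 at chr9:108479612-108479911, Lamb1 at chr12:31265043-31265342, Nid1 at chr13:13437352-13437651 and Sfrp2 at chr3:83766071-83766370. Capitals mark matches, on either strand, to promoter motifs. The TATA motif was searched as the letters TATAAA. The GC box was searched as GGGCGG, the AP-1 site as TGANTCA, and the box named CCAAT by the letters of its name.
Lamb2: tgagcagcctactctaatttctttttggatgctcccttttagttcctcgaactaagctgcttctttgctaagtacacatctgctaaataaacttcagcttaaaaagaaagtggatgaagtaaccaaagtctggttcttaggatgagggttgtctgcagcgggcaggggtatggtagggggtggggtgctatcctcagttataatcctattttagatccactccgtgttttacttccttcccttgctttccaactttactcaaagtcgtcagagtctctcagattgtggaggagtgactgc
Lamb1: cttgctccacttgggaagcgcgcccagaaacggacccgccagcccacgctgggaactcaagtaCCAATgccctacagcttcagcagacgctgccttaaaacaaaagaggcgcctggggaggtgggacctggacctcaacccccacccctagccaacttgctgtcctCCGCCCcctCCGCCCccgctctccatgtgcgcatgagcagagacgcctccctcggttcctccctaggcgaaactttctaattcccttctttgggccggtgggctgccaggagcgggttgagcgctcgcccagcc
Nid1: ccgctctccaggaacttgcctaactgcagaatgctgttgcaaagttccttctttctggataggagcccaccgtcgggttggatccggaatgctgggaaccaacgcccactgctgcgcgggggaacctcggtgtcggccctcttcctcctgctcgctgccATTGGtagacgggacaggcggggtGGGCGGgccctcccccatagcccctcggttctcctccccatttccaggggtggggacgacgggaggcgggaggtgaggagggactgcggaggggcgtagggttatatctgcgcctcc
Sfrp2: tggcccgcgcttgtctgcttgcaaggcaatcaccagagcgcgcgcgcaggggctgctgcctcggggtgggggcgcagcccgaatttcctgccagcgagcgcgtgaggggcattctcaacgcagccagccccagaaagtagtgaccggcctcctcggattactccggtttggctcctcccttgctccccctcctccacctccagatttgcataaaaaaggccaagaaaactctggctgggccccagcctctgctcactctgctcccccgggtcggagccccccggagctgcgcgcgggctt
The Lamb1 region held a CCAAT box from base 64 and GC boxes from bases 167 and 176 on the opposite strand, and the Nid1 region a CCAAT box from base 160 on the opposite strand and a GC box from base 184. Neither the Lamb2 nor the Sfrp2 window held these letters, and no match overlapped another. The GC content was 44% for Lamb2 and 63.7%, 64.7% and 66% for Lamb1, Nid1 and Sfrp2. A promoter was listed for 23 of the 36 tested members, and of these 12 held a GC box (35.9% of all 27025 listed promoters did), 8 a CCAAT box (37.9%), 2 a TATA box (14.2%) and 1 an AP-1 site (7.93%). A match is a description of letters and not a binding site.

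Fn1 encodes fibronectin, which links integrins to collagen. Its log2 signal was 10.98 and 10.63 in wild-type-labelled, 11.20 and 11.18 in knockout-labelled, and 10.76 and 10.89 in ezetimibe-fed testes. Both knockout-labelled arrays lay above the other 4. The difference from wild-type-labelled testes was 0.39 ± 0.15 (SE, limma adjusted p = 0.545), and 0.21 without wild-type replicate 2. The ezetimibe-fed arrays were -0.36 ± 0.15 from the knockout-labelled ones on the log2 scale (limma adjusted p = 0.878).

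Postn encodes periostin, a matricellular protein that binds fibronectin and collagen. It read 10.40 and 9.94 in wild-type-labelled, 10.35 and 10.44 in knockout-labelled, and 10.45 and 10.67 in ezetimibe-fed testes. The lowest value was that of wild-type replicate 2, and without it the knockout-labelled difference of 0.22 went to -0.00. The ezetimibe-fed arrays lay above those of both other groups, by 0.39 on the log2 scale from wild-type-labelled testes (0.17 without wild-type replicate 2).

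Sparc, which binds collagen and is abundant in Sertoli and Leydig cells, read 14.29 and 14.28, then 14.37 and 14.47, then 13.99 and 14.26 in the same order of groups. Knockout-labelled arrays were the highest and ezetimibe-fed arrays the lowest with no overlap, but the differences of 0.14 and -0.29 did not pass the test (the latter with limma adjusted p = 0.881). Without knockout replicate 2 the former was 0.09, and without ezetimibe replicate 1 the latter was -0.15. Its relative Sparcl1 read 14.16 and 14.22, then 14.04 and 14.01, then 13.63 and 13.92. Here wild-type-labelled arrays were the highest, and the ezetimibe-fed arrays were -0.41 ± 0.13 from them on the log2 scale (limma adjusted p = 0.643; -0.27 without ezetimibe replicate 1).

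Thrombospondins are secreted trimers or pentamers that bind matrix proteins and cell receptors. Thbs3 read 9.73 and 9.25 in wild-type-labelled, 9.88 and 9.81 in knockout-labelled, and 10.02 and 10.14 in ezetimibe-fed testes. The groups did not overlap, and the ezetimibe-fed arrays were 1.5-fold above the wild-type-labelled ones (log2 difference 0.59, limma adjusted p = 0.643), or 0.35 on the log2 scale without wild-type replicate 2. Thbs4 was detected on the 2 knockout-labelled arrays, at 9.20 and 8.73, and on none of the other 4, whose values of 7.51 to 8.31 lay below them. That put its measured signal 1.89-fold above wild-type-labelled testes (limma adjusted p = 0.545) and 2.08-fold above ezetimibe-fed testes (adjusted p = 0.779). With 1 array left out, the log2 difference was as small as 0.67 for knockout-labelled minus wild-type-labelled testes. For ezetimibe-fed minus knockout-labelled testes it was as small as -0.66. Thbs2 overlapped between all groups, at 8.67 to 9.75.

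Decorin (Dcn) is a small proteoglycan that coats collagen fibrils and binds TGF-beta. It read 15.64 and 15.54 in wild-type-labelled, 15.89 and 15.38 in knockout-labelled, and 15.20 and 15.43 in ezetimibe-fed testes. The knockout-labelled arrays held both the highest and the second lowest value, so these groups overlapped, with a difference of 0.05 from wild-type-labelled testes. Lumican (Lum), which regulates the width of collagen fibrils, overlapped between all groups, at 9.73 and 10.35, then 10.61 and 10.12, then 10.31 and 9.88. Biglycan (Bgn), the close relative of decorin, was not detected on any array.

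Of the proteins that build and cross-link elastic fibres, Loxl1 was the 1 member tested. This lysyl oxidase-like enzyme acts on elastin, and its signal was 12.34 and 12.29, then 12.34 and 12.23, then 12.41 and 12.42. The ezetimibe-fed arrays lay just above the other 4, and the range over all arrays was 0.19. The probes for Lox, Loxl2, Loxl3, Loxl4, Fbln1, Fbln2, Fbln5 and Fbn2 were detected on too few arrays to be tested. Fbln1 reached a signal-to-noise of 13.96 on wild-type replicate 1 and was undetected on the other 5 arrays.

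**Figure D3:**
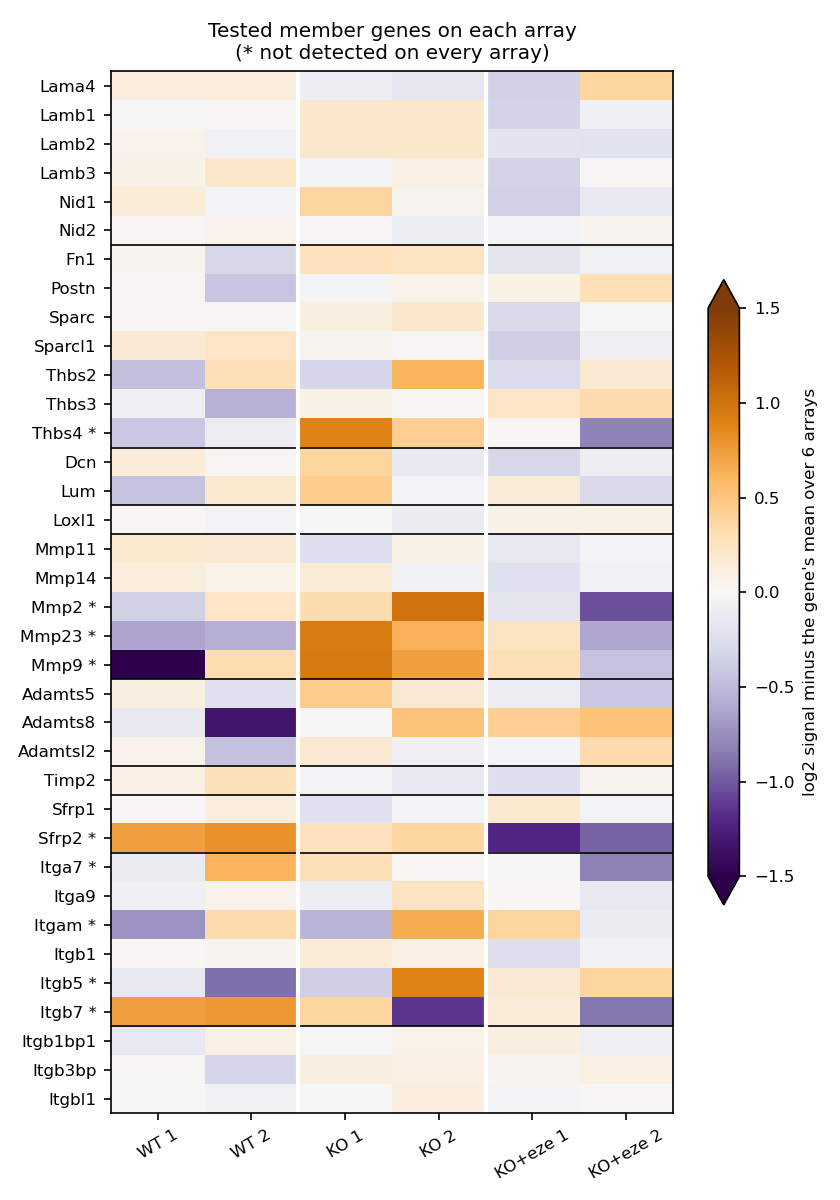
Each of the 36 tested member genes (rows, grouped by role) on each of the 6 arrays (columns; WT wild-type-labelled, KO knockout-labelled, KO+eze ezetimibe-fed), coloured by log2 signal minus the mean of that gene over the 6 arrays, with colours limited at 1.5 log2 units either way; a star marks genes not detected on every array. Lamb1 and Lamb2 are highest on the 2 knockout-labelled arrays, and Sfrp2 is lowest on the 2 ezetimibe-fed arrays at 7.36 and 7.61.

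Among the metalloproteases, the bright members varied little. Mmp14, the membrane protease that activates pro-Mmp2 at the cell surface, read 14.10 and 14.04, then 14.12 and 13.92, then 13.76 and 13.93, with the knockout-labelled arrays overlapping both other groups. Mmp11, stromelysin-3, read 11.37 and 11.35 in wild-type-labelled, 10.95 and 11.26 in knockout-labelled, and 11.03 and 11.15 in ezetimibe-fed testes. Both wild-type-labelled arrays lay above the other 4 (differences of -0.26 and -0.27, which did not pass the test). The former was -0.11 without knockout replicate 1 and -0.41 without knockout replicate 2.

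The gelatinases Mmp2 and Mmp9, which cut type IV collagen and denatured collagen, and the membrane-anchored Mmp23 were dim. Mmp2 read 8.84 and 9.42, then 9.51 and 10.19, then 9.01 and 8.16, and it was undetected on 1 of the ezetimibe-fed arrays. The knockout-labelled arrays were the highest, and the ezetimibe-fed arrays lay -1.26 ± 0.40 from them on the log2 scale (SE, limma adjusted p = 0.792), or -0.84 without ezetimibe replicate 2. Mmp23 was detected on the knockout-labelled arrays, at 9.30 and 9.0, and on neither array of the other groups, which read 7.73 and 7.79 in wild-type-labelled and 8.60 and 7.74 in ezetimibe-fed testes. Its measured signal was 2.62-fold higher in knockout-labelled than in wild-type-labelled testes (limma adjusted p = 0.434) and 1.98-fold higher than in ezetimibe-fed testes (adjusted p = 0.779). With 1 array left out, the log2 difference was as small as 1.23 for knockout-labelled minus wild-type-labelled testes. For ezetimibe-fed minus knockout-labelled testes it was as small as -0.56.

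Mmp9 was likewise detected on both knockout-labelled arrays, at 8.69 and 8.47, and undetected on the rest. Its wild-type-labelled values of 5.89 and 8.05 lay far apart, and both had a signal-to-noise under 3. With the lower value raised to the lowest detected signal on its array, the knockout-labelled signal was 2.43-fold higher, an estimate and not a minimum. The limma adjusted p, from the values as measured, was 0.558. Leaving out wild-type replicate 1 gave a log2 difference of 0.52, and leaving out wild-type replicate 2 gave 2.74, so the estimate rests on the former array. The other 13 Mmp probes were not tested.

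Adamts proteases cut proteoglycans and other matrix proteins. Adamts5, which cuts aggrecan and versican, read 10.64 and 10.33 in wild-type-labelled, 11.00 and 10.72 in knockout-labelled, and 10.45 and 10.12 in ezetimibe-fed testes. Both knockout-labelled arrays lay above the other 4. Adamts8 read 9.38 and 8.17, then 9.50 and 10.02, then 9.94 and 10.03. Wild-type replicate 2 was the lowest by over 1 log2 unit: with it the knockout-labelled difference was 0.99 ± 0.43 (SE, limma adjusted p = 0.553), and without it 0.39. The difference of the ezetimibe-fed arrays from wild-type-labelled ones was 1.21 ± 0.43 (limma adjusted p = 0.669), and 0.62 without that array. A second Adamts8 probe was detected on 3 arrays and was not tested. Adamtsl2, which binds fibrillin and lacks a protease domain, overlapped between all groups, at 10.73 to 11.51.

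Timp2, which inhibits Mmps and also takes part in the activation of pro-Mmp2 by Mmp14, read 14.82 and 15.01 in wild-type-labelled, 14.70 and 14.60 in knockout-labelled, and 14.51 and 14.76 in ezetimibe-fed testes. Both wild-type-labelled arrays lay above the other 4, and the differences of knockout-labelled and ezetimibe-fed testes from them were -0.27 and -0.28 on the log2 scale (limma adjusted p = 0.574 for the former). Without wild-type replicate 2 they were -0.17 and -0.18, and without ezetimibe replicate 1 the latter was -0.15. The Timp3 probe was detected on 1 array and the Timp4 probe on none.

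Sfrp proteins are secreted antagonists that bind Wnt ligands. In both comparisons of ezetimibe-fed testes, Sfrp2 had the lowest adjusted p of the 36 members. Its log2 signal was 9.30 and 9.37 in wild-type-labelled, 8.84 and 8.95 in knockout-labelled, and 7.36 and 7.61 in ezetimibe-fed testes. The 3 groups did not overlap and each pair of replicates was close. The signal-to-noise was 3.85 and 5.07, then 3.94 and 2.18, then 1.27 and 0.49, so the probe was detected on both wild-type-labelled arrays, on 1 knockout-labelled array and on neither ezetimibe-fed array. Before normalisation the signals were 827 and 317, then 536 and 488, then 175 and 242, so that wild-type replicate 2, the dim array, lay below the knockout-labelled arrays.

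The Sfrp2 difference of knockout-labelled from wild-type-labelled testes was -0.45 ± 0.13 (SE, limma adjusted p = 0.495). The ezetimibe-fed signal, undetected on both arrays, was 2.65-fold lower than the knockout-labelled one (limma adjusted p = 0.444) and 3.61-fold lower than the wild-type-labelled one (adjusted p = 0.143). Sfrp1 read 10.92 and 11.02, then 10.69 and 10.88, then 11.10 and 10.88, with a mean difference of 0.21 on the log2 scale between ezetimibe-fed and knockout-labelled testes. The nearest arrays of these 2 groups both read 10.88, and the difference was 0.09 without ezetimibe replicate 1, 0.11 without knockout replicate 1 and 0.32 without ezetimibe replicate 2. These differences did not pass the test.

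**Figure D4:**
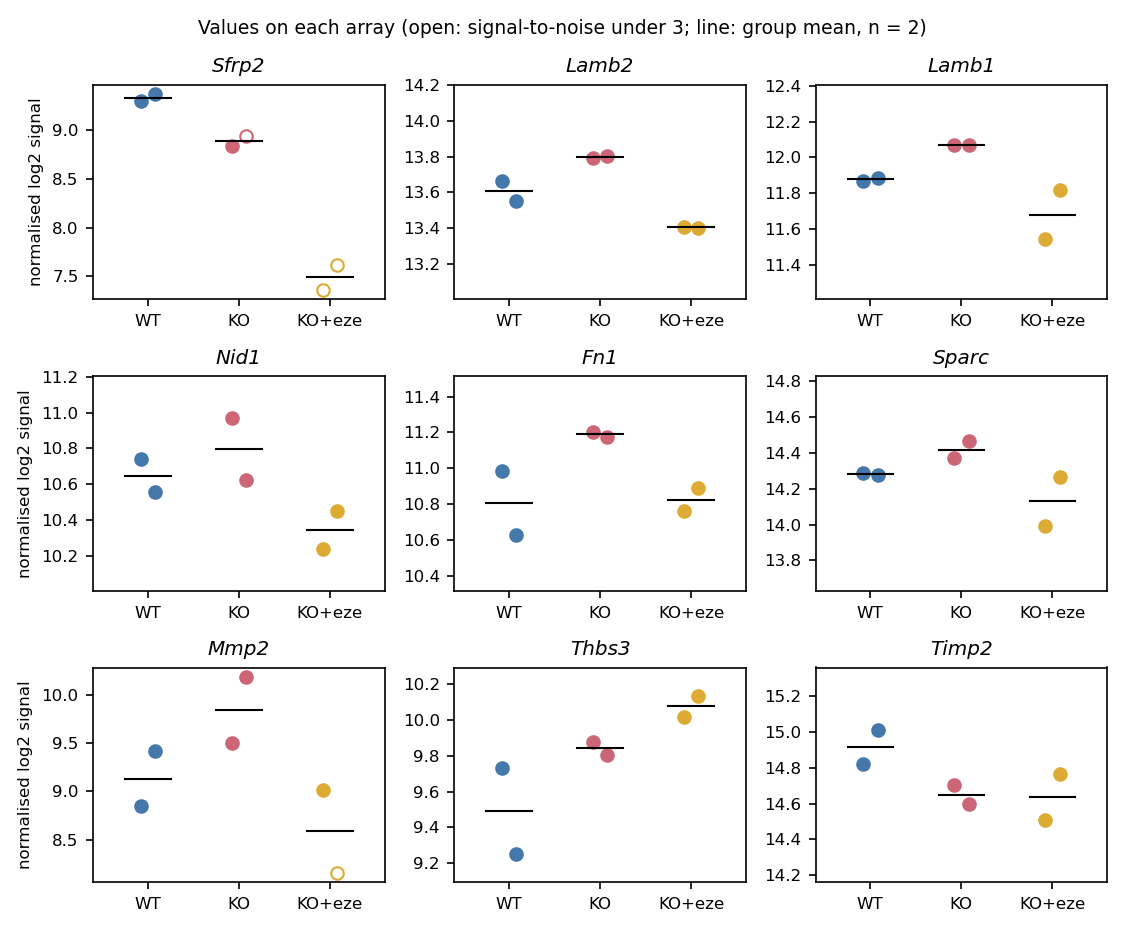
Normalised log2 signal of 9 member genes, 1 panel per gene with its own vertical axis that does not start at 0; points are arrays (WT wild-type-labelled, KO knockout-labelled, KO+eze ezetimibe-fed), lines are means of the 2 arrays of a group, and open points had a signal-to-noise under 3. Lamb2 lies at 13.79 and 13.80 in knockout-labelled and 13.41 and 13.40 in ezetimibe-fed testes, and both ezetimibe-fed points of Sfrp2, at 7.36 and 7.61, are open.

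Integrins are pairs of an alpha and a beta subunit. Itgb1, the beta subunit of most matrix receptors, was the brightest subunit and read 12.92 and 12.95, then 13.06 and 13.00, then 12.67 and 12.86. Knockout-labelled arrays were the highest and ezetimibe-fed arrays the lowest, with no overlap. Itga9, which pairs with it and binds tenascin, overlapped between all groups, at 11.34 to 11.72. Itga7, a laminin receptor subunit of muscle, read 10.19 and 10.91, then 10.59 and 10.32, then 10.29 and 9.49. Its ezetimibe-fed arrays, of which 1 was undetected, lay below the knockout-labelled ones and overlapped the wild-type-labelled ones.

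Both tested subunits known from blood cells, Itgb7 and Itgam, were undetected in at least 1 group. Itgb7, a lymphocyte subunit, was detected on both wild-type-labelled arrays, at 9.73 and 9.78 with a signal-to-noise of 16.67 and 4.02, and on neither knockout-labelled array, at 9.38 and 7.86. The measured signal in knockout-labelled testes was 2.20-fold lower (limma adjusted p = 0.576). Without knockout replicate 2 the log2 difference was -0.37 in place of -1.14. Itgam, the CD11b subunit of myeloid cells, spread from 6.90 to 8.28 with all groups overlapping. Itgb5, which pairs with the alpha-v subunit to bind vitronectin, read 9.15 and 8.40, then 8.94 and 10.21, then 9.47 and 9.70. Both wild-type-labelled arrays were below detection, and the ezetimibe-fed signal was 1.75-fold above theirs (limma adjusted p = 0.781). With 1 array left out, that log2 difference of 0.81 ranged from 0.44 to 1.17.

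Itgb1bp1 and Itgb3bp, which are not integrin subunits, were bright, while Itgb1bp2 was detected on 1 array and was not tested. Itgb1bp1, which binds the tail of the beta-1 subunit, read 17.61 and 17.86, then 17.75 and 17.83, then 17.87 and 17.70. Itgb3bp, a kinetochore protein, read 16.92 and 16.57, then 16.99 and 16.98, then 16.93 and 16.98, with wild-type replicate 2 the lowest. Neither gene stands for matrix content, and the secreted Itgbl1 varied by 0.17 over the 6 arrays.

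Other matrix genes were read from lists beside the members, and 0 of their tested genes passed in the comparisons given here. Of 19 tested collagen chains, 14 lay above 0 in knockout-labelled against wild-type-labelled testes (median 0.20), and 13 lay below 0 with ezetimibe against knockout-labelled (median -0.25). Of 11 tested genes for matrix processing and other proteolysis, 7 lay above 0 in the first comparison and 9 below 0 in the second. Among them Serpinh1, the collagen chaperone, read 9.12 and 9.04 in wild-type-labelled, 9.48 and 9.59 in knockout-labelled, and 8.67 and 8.88 in ezetimibe-fed testes. It was detected on both knockout-labelled arrays, on 1 wild-type-labelled array and on neither ezetimibe-fed array. Serpinh1 was thus tested through the knockout-labelled arrays alone, and its differences follow in part from the filter. The counts of these lists include other genes that were not detected on every array, and they were not repeated without such genes. The TGF-beta list had 7 of 12 above and 7 of 12 below, with the latent TGF-beta binding protein Ltbp4 at 1.13 (undetected on wild-type replicate 2) and Ltbp3 at -0.43 in the first comparison. Other matrix glycoproteins and proteoglycans had 7 of 13 above and 8 of 13 below, and the integrin adhesion partners 5 of 8 above and 5 of 8 below. Over all tested probes 50.9% lay above 0 in the first comparison and 49.8% below 0 in the second.

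Markers of the cells that make or border this matrix were read beside the members, and their part in the differences was not tested. The summed signal of 6 tested Sertoli markers was 19.61 and 19.62 in wild-type-labelled, 19.77 and 19.70 in knockout-labelled, and 19.45 and 19.61 in ezetimibe-fed testes, on a log2 scale. All 6 had a higher mean in knockout-labelled than wild-type-labelled testes and a lower mean with ezetimibe than in knockout-labelled testes, and Amh was undetected. Clu gave 94.5% to 95.2% of this summed signal on an array, and the other 5 summed to 15.24 and 15.26, then 15.58 and 15.35, then 15.19 and 15.34, with the knockout-labelled arrays again the highest. The 6 peritubular myoid markers summed to 17.55 to 17.60 on all arrays, of which Actg2 gave 74.1% to 77.3%, and the other 5 to 15.45 to 15.60. With ezetimibe against knockout-labelled testes 5 of the 6 lay below 0. The 5 Leydig markers summed to 16.57 and 16.53, then 16.62 and 16.63, then 16.34 and 16.46, with 4 of 5 below 0 in that comparison. The 6 macrophage markers summed to 15.99 and 15.88, then 15.97 and 16.00, then 15.57 and 15.73. In the same comparison 6 of 6 lay below 0, and Adgre1 was undetected. These 3 lists did not lie mostly above 0 in knockout-labelled against wild-type-labelled testes. There 4 of 6 myoid, 3 of 5 Leydig and 5 of 6 macrophage markers lay below 0, where 49.1% of all tested probes did.

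Markers of blood and vessels varied more. The red cell pair Hba-a1 and Alas2 summed to 16.06 and 16.01, then 18.32 and 17.32, then 15.17 and 15.82, highest on the knockout-labelled arrays. Hba-a1 gave 88.7% to 98.1% of that signal, and Alas2 alone read 12.53 and 12.10, then 12.60 and 12.57, then 12.03 and 12.26. The 4 tested endothelial markers summed to 11.03 and 11.44, then 11.74 and 12.01, then 11.39 and 11.76, and Tie1 was undetected. Of the 5 lymphocyte markers on the array 0 could be tested, and Ptprc, Cd3e, Cd3g and Cd4 were undetected on all arrays. The germ cell lists summed to 15.08 to 15.44 for spermatogonia (5 of 5 above 0 in knockout-labelled against wild-type-labelled testes), 16.69 to 16.86 for spermatocytes and 21.23 to 21.95 for spermatids, the last highest on wild-type replicate 2. Of the epididymis list, Lcn8 and Rnase10 were tested, with sums of 13.37 to 13.68 carried mostly by Lcn8, and Lcn5 and Adam28 were undetected.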

How the data were processed

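Per the labels' protocols, the RNA was labelled with digoxigenin, and each sample went on a 1-colour array. The deposited table holds, per the file headers, each probe's raw intensity and a score for its signal over noise; neither the scanner software nor a genome build for the probes is given in the sources used here. A second deposited table holds the same intensity values, each array scaled by 1 constant to a median near 1, and was used as an alternative. Per-sample columns left out numbered 0.

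Raw signals were taken as log2 values and quantile-normalised with limma 3.58.1 in R 4.3.3. A probe was kept when some group had a signal-to-noise of 3 or more on both its arrays (16015 of 33012). The limma functions lmFit and eBayes fitted 1 mean per group over the 6 arrays, with p-values adjusted by Benjamini-Hochberg over all kept probes and a threshold of 0.05. Precision is limited by having 6 arrays. The script was tested on simulated data. No batch is given in the labels or files.

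Where both arrays of a group left a probe undetected, its fold is an estimate and not a minimum. The mean of the brighter group was divided by that of the dim group. Each dim value was first raised, where lower, to the lowest detected signal of any probe on its array, 6.37 to 7.12 on the log2 scale. Of the folds given, only that of Mmp9 was changed by this step.

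Of all probes 14411 had 1 symbol, 247 several and 18354 none listed; through RefSeq identifiers 0 member symbols changed. Members, gene lists and cell type markers were chosen with earlier results of these data known. Named members are those apart between groups with the lowest limma p (up to 6 per direction and comparison), Dcn, Lum, Bgn, Fn1, Postn, Nid1, Nid2, Sparc and the brightest of each role; further members are given to account for their role and were chosen after their values were seen. From each other list up to 3 members with the lowest limma p in a comparison may be named. Sequences are from RefSeq, and tables and figures used Python 3.11.15 with pandas 2.3.3 and matplotlib 3.10.9.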

Additional observations from a re-analysis of the deposited data

How the results depend on the processing

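Under the 15 alternatives, 0 members passed in any comparison. The median difference over members (knockout-labelled minus wild-type-labelled, ezetimibe-fed minus knockout-labelled, ezetimibe-fed minus wild-type-labelled) was 0.14, -0.18 and -0.08. It was 0.235, -0.226 and -0.0235 with median scaling, and 0.236, -0.226 and -0.0246 with the authors' deposited values. Without a filter on dim probes, over all 91 members, the first 2 were -0.0359 and -0.0314, the first with the sign turned; with detection required on all 6 arrays they were 0.0925 and -0.147. Leaving out each array gave 0.089 to 0.141, -0.237 to -0.130 and -0.169 to -0.054. Median scaling also moved the medians over all tested probes, to 0.109, -0.0499 and 0.0578. The member median minus the all-probe median was then 0.126, -0.176 and -0.0813, against 0.137, -0.183 and -0.0847 in the main setting. The authors' values are themselves scaled array by array, so they and median scaling are not independent alternatives.

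Over all probes, the number called was 2, 0 and 2. It was 31, 14 and 26 with an intensity trend in the prior variance, 0 in both comparisons with wild-type-labelled testes without the filter, 4 in the first with detection on all arrays, and 0 and 1 in those 2 comparisons with only the 2 groups fitted. Leaving out each array gave 0 to 1, 0 to 4 and 0 to 3.

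Nid2 turned sign in each comparison, to 0.0506, -0.0112 and 0.0394 with median scaling and 0.0510, -0.0121 and 0.0389 with the authors' values. With median scaling the medians of all tested probes were themselves 0.109, -0.0499 and 0.0578. Nid2 lay below, above and below these medians, as it did in the main setting. Leaving out each array, Nid2 ranged from -0.017 to 0.099 in the second comparison and -0.067 to 0.012 in the last, Lum from -0.252 to 0.373 and Fn1 from -0.157 to 0.198 in the last, and Postn from -0.00287 to 0.451, Dcn from -0.208 to 0.302 and Nid1 from -0.028 to 0.324 in the first. The cause of the sign changes with an array left out was not tested. No paired analysis was possible because the labels give no replicate numbers that groups share. Members near the detection limit (Sfrp2, Mmp9, Mmp23, Thbs4, Itgb7, Itgam, Itgb5) have no reliable level in the groups where they were undetected. Their folds against those groups are estimates and not minimum changes. With 2 arrays a group, a p that misses the threshold does not show that values did not differ.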
